A study of Mus musculus with 12 samples.

Results

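Carriers of organic ions, nucleosides, vitamins and small peptides were taken as all genes whose symbol starts with Slco, Slc10a, Slc15a, Slc19a, Slc22a, Slc28a, Slc29a or Slc47a. Of 54838 genes listed, 54723 had a symbol, and 65 of these belonged to the 8 families: 26 to Slc22a, 15 to Slco, 7 to Slc10a, 5 to Slc15a, 4 to Slc29a, 3 each to Slc19a and Slc28a, and 2 to Slc47a. Of these, 64 reached 10 counts in at least 3 of the 12 libraries, and these 64 are described here and were all tested. RNA was sequenced from spinal cord of mice at postnatal day 60 (P60) with 3 libraries in each of 4 groups, from Olig1+/+;Tet1fl/fl mice, the control, and Olig1cre/+;Tet1fl/fl mice, the Tet1 mutant. Both genotypes thus carried floxed alleles of Tet1, which encodes an enzyme that oxidizes methylcytosine to hydroxymethylcytosine, and the mutant also carried a cre allele at Olig1 that removes exon 4 of Tet1 in cells of the oligodendrocyte lineage. Mice of each genotype received lysolecithin (LPC), which strips myelin, in the ventrolateral white matter of the cord. The lesioned region was taken 4 days later (4dpl), and per the study's text the unlesioned tissue came from the opposite side of such injected cords, not from untouched mice. Cells were dissociated and layered over a Percoll gradient, which enriches oligodendroglia and discards vessels, but they were not sorted, so every value is a sum over all cells of the preparation, in which fewer cells of a type and less RNA per cell cannot be told apart.

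These proteins move substrates that cross membranes poorly. Organic anion transporting polypeptides (Slco) carry bile salts, thyroid hormones, steroid conjugates and prostaglandins, and the Slc22a family holds organic cation and anion carriers together with the carnitine carriers. Equilibrative (Slc29a) and sodium-coupled (Slc28a) nucleoside transporters recycle adenosine and other nucleosides, Slc19a members import folate and thiamine, Slc15a members move di- and tripeptides and histidine, Slc10a members move bile acids or have no assigned substrate, and Slc47a members expel organic cations. In the nervous system they are known mainly from the blood vessels, the choroid plexus and the meninges, and from the lysosomes and surface of microglia and macrophages.

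Each library held between 34805086 and 67251544 counts, so that counting error is small for abundant members and is a limit for those with few counts. Levels are given as CPM, counts scaled to a common library total after TMM normalization. Where genes are compared with each other they are given as RPKM, which divides CPM by the exon length in kilobases. Tet1 as a whole gene was counted in every library, with means (SD, n = 3 each) of 16.1 ± 1.92 CPM in unlesioned control and 12.8 ± 3.28 CPM in unlesioned libraries labelled mutant. At 4dpl Tet1 was at 12.1 ± 0.39 and 15.2 ± 5.54 CPM. This count did not separate the genotypes, which are taken from the labels throughout, and it does not read exon 4 on its own. Markers of oligodendrocytes, 9 genes such as Mbp and Mog, summed to between 9639 and 36610 CPM, the highest in replicate 3 of the mutant at 4dpl against at most 23290 CPM in the other libraries. Markers of microglia (8 genes) summed to between 2353 and 4852 CPM in the unlesioned control and between 2813 and 9142 CPM in the unlesioned mutant, the highest in replicate 1, and those of other phagocytes, astrocytes, endothelium and fibroblasts were also detected. Unlesioned and 4dpl libraries of a genotype can therefore come from the same mice, which the labels do not tie to libraries, and the fit takes all 12 as independent. The study's methods list 3 biological replicates per age and condition, and the labels do not name the mouse behind each library. If some libraries of a group shared a mouse, p-values would measure a spread that is partly technical.

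Transcript levels differed widely between members. Averaged over all 12 libraries, 7 of the 64 were above 10 RPKM, 22 above 1 RPKM and 25 above 0.5 RPKM. The organic anion carrier Slco2b1 had the highest mean level (53.1 RPKM), followed by Slc22a17 (32.5 RPKM), which encodes a receptor for the iron-carrying lipocalin 2, and Slc29a3 (31.6 RPKM), the nucleoside transporter of lysosomes. Slco3a1, Slc15a4, Slc10a3 and Slc29a1 came next, with means between 10.9 and 16.2 RPKM. The members' RPKM summed to between 150 and 257 in unlesioned libraries and between 246 and 360 at 4dpl. The 3 members highest in each library, which were not the same in all, made up 29.7% to 57.8% of that sum. In the unlesioned control the order was led by Slco2b1 at 27.7 ± 10.8 RPKM (SD, n = 3) and Slc22a17 at 27.5 ± 1.17 RPKM (SD, n = 3), and each of the 12 members with the highest mean overlapped its neighbour in that order. At 4dpl in the control the first 3 places were distinct, with Slco2b1 at 73.2 ± 19.5 RPKM (SD, n = 3), Slc29a3 at 43.3 ± 3.32 RPKM (SD, n = 3) and Slc22a17 at 27.9 ± 1.95 RPKM (SD, n = 3), and the libraries of each did not overlap those of the next. In the mutant at 4dpl the same 3 members led, but their libraries overlapped, since Slc22a17 was at 46.7 ± 23.1 RPKM (SD, n = 3) there.

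**Figure D1:**
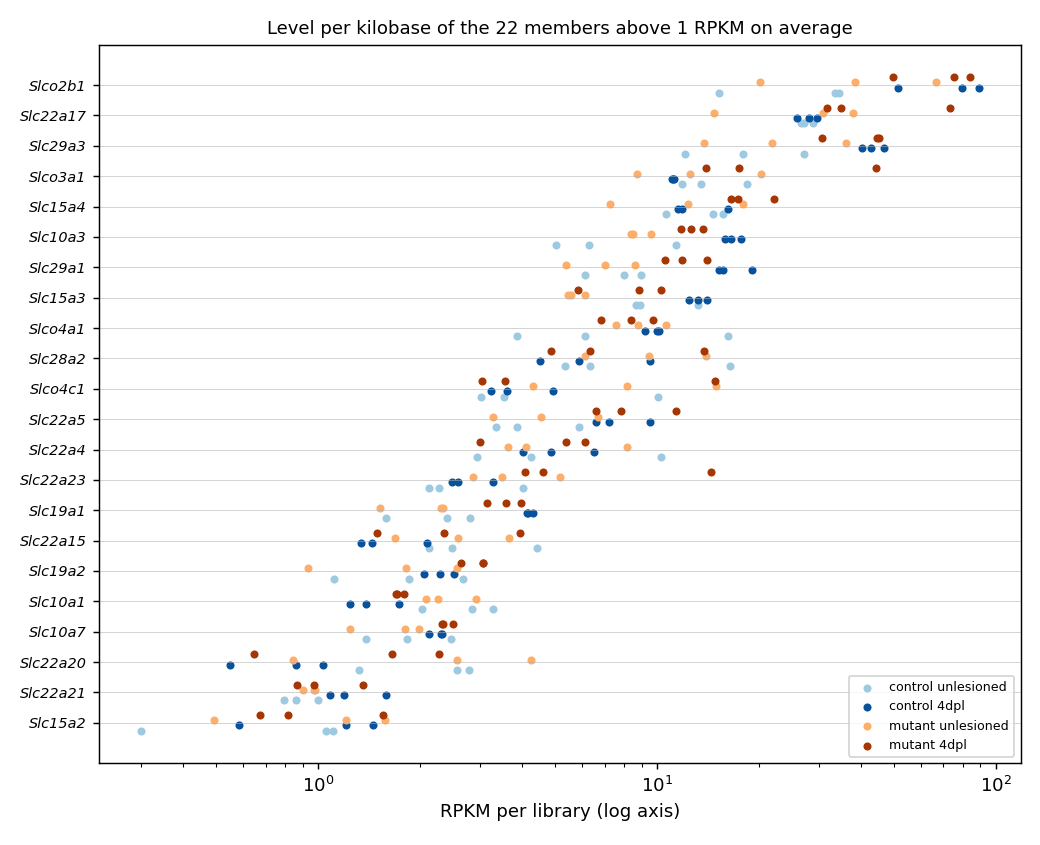
Level of the 22 members above 1 RPKM on average, as RPKM in each of the 12 libraries on a log axis, with 1 point per library coloured by group and members ordered by their mean. Slco2b1, Slc29a3 and Slc29a1 have all 4dpl control points to the right of the unlesioned control points, and replicate 3 of the mutant at 4dpl stands apart for Slc22a17, Slco3a1 and Slc22a23.

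Start regions are printed for 3 members, to show the letters behind the promoter counts given next: 2 that rose from a high level after lesion and 1 that fell from a low level. They are the 250 bases before the start of Slc29a3 (chr10:60752783-60753032, minus strand), Slco2b1 (chr7:99711341-99711590, minus strand) and Slc28a1 (chr7:81114549-81114798, plus strand), from RefSeq on GRCm38.p6, written 5′ to 3′ along the gene's strand, with each CCGG in capitals. CCGG is the site that the hydroxymethylation assay of the same study reads, and those data were not analysed here. 
Slc29a3: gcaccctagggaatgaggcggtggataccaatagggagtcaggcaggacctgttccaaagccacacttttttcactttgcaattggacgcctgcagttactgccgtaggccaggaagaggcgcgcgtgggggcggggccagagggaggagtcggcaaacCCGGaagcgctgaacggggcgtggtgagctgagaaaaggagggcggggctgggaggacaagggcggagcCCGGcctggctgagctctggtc
Slco2b1: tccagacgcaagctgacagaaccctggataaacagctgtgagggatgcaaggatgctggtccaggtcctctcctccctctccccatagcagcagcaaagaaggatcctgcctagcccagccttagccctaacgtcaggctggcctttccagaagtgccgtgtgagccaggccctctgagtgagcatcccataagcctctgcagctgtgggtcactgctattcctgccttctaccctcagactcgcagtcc
Slc28a1: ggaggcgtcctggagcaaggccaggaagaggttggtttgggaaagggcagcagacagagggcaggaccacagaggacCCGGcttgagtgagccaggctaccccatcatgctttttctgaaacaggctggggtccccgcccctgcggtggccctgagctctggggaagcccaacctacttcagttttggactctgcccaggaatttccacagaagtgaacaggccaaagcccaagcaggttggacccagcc

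The Slc29a3 stretch held 2 CCGG and 15 CpG, that of Slco2b1 held no CCGG and 4 CpG, and that of Slc28a1 held 1 CCGG and 4 CpG. RefSeq windows from 250 bases before to 50 bases after the start were matched for 55 of the 64 members, and CCGG, which reads the same on both strands, was present in 24 of them (43.6%), against 52.6% of 27025 windows of all genes. It was in all 5 windows of members called higher after lesion, and in 6 of the 23 windows of members called lower (26.1%). The median number of CpG was 18 in the members called higher, 4 in those called lower, 11 in those not called and 7 in all windows. The E-box CACGTG was in 3 members' windows (5.5%, against 7.2% of all), none of them called. GAGGAA or its reverse complement, a PU.1-type motif, was in 18 (32.7%, against 28.3% of all), 2 of the 5 called higher and 8 of the 23 called lower. The windows of several members do not lie at the start of the gene in the annotation used for the counts. Those of Slc29a1, Slc22a23, Slc22a5 and Slc28a2, among others, follow from starts outside the annotated gene. That of Slc22a12 lies wholly outside it, and those of Slc22a14, Slco1a6, Slco2a1 and Slc15a4 lie well inside the gene. The matches describe letters, with no test.

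To ask how the carriers responded to demyelination, 4dpl and unlesioned libraries were compared in each genotype and averaged over both. Averaged over genotypes, 6 carriers rose and 26 fell. The risers were the nucleoside transporters Slc29a1 and Slc29a3, the folate carrier Slc19a1, the carnitine carrier Slc22a5, the organic anion carrier Slco2b1 and Slc10a3, all well expressed, while 24 of the 26 that fell lay at or near the level of genes that the tissue hardly transcribes. The 32 calls are 50% of the members, against 32.8% of the 31109 genes tested, with 14.2% of all genes called higher and 18.6% called lower. The median log2 difference was -1.39 over the members and -0.284 over all genes, and differences given below are log2, 4dpl minus unlesioned, averaged over genotypes unless a genotype is named. The filter on low counts was passed by 29 members through unlesioned libraries alone, since they reached its level of 0.214 CPM in at least 3 of these and in fewer than 3 at 4dpl, so that a fall of these members is partly fixed by the filter, and counts and medians over the members describe no direction of their own. In the control, 4 members rose and 10 fell (21.9%, against 10.1% of all genes, 5.12% higher and 5.01% lower), with a median of -1.32 over the members and -0.36 over all genes. In the mutant none was called (against 0.135% of all genes), although 29 members were under an unadjusted p of 0.05, the smallest adjusted p was 0.0522 and the median was -1.06 over the members and -0.175 over all genes. With DESeq2, 26 members were called in the control and 18 in the mutant. The control count rested on single libraries, since it was 22 without unlesioned control replicate 1, 0 without unlesioned control replicate 2 or 3 or 4dpl control replicate 1 or 2, 9 without 4dpl control replicate 3 or 4dpl mutant replicate 2, and 5 without unlesioned mutant replicate 3. The averaged count stayed between 25 and 35 without any 1 library, and the 6 risers were called in all 12 of these fits.

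**Figure D2:**
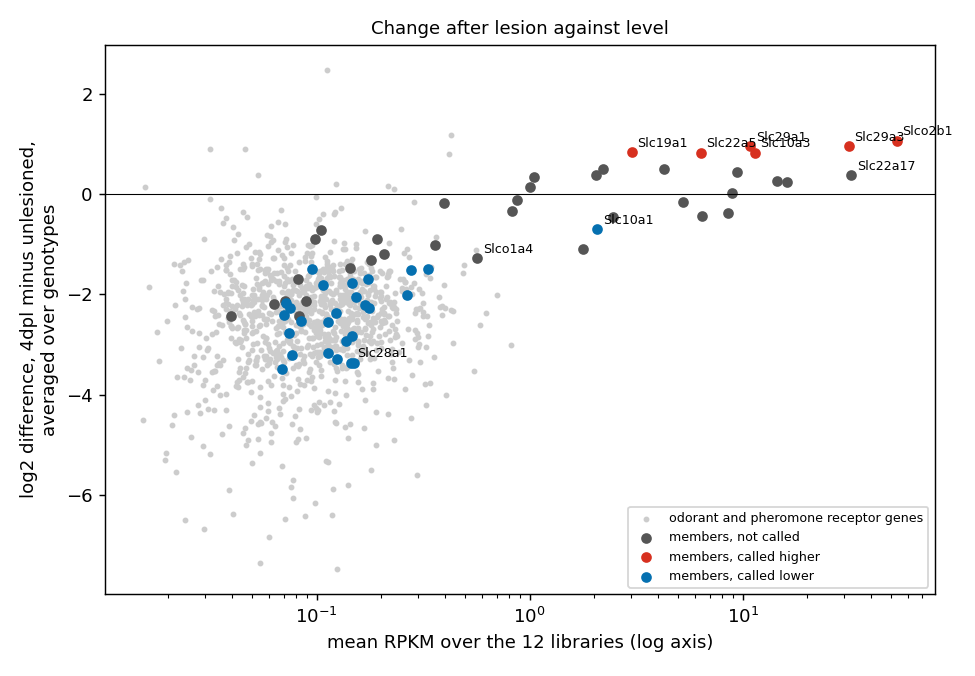
Log2 difference between 4dpl and unlesioned, averaged over genotypes, against the mean RPKM over the 12 libraries on a log axis, with 1 point per gene. Red points are the 6 members called higher (mean level 3.02 to 53.1 RPKM), blue points the 26 called lower, dark grey points members not called and light grey points odorant and pheromone receptor genes, among which most of the blue points lie.

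Of the 7 nucleoside transporters, 2 rose, 2 fell and 3 were not called. Among the equilibrative carriers, Slc29a1 and Slc29a3 rose, by 0.95 and 0.96 on the log2 scale, while Slc29a2 and Slc29a4 were not called. Among the sodium-coupled carriers Slc28a1 and Slc28a3, both at low level, fell, and the well expressed Slc28a2 was not called. Slc29a1 (chromosome 17 from 45585200 to 45599606, minus strand, GRCm38) encodes the main adenosine carrier of the cell surface. Its level in control libraries was 35.8, 24.6 and 32.00 CPM unlesioned and 62.8, 76.3 and 61.2 CPM at 4dpl, and in libraries labelled mutant it was 34.5, 21.6 and 28.1 CPM unlesioned and 56.3, 42.4 and 47.4 CPM at 4dpl. In both genotypes every 4dpl library was above every unlesioned library. The averaged log2 difference was 0.95 (SE 0.163, adjusted p = 0.00285), with 1.11 (SE 0.231, adjusted p = 0.0262) in the control and 0.79 (SE 0.229, adjusted p = 0.0616) in the mutant. Libraries that separated upward were seen for 16.6% of all genes tested in the control, 18.9% in the mutant and 11.1% in both.

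Slc29a3 (chromosome 10 from 60712072 to 60752794, minus strand) encodes the nucleoside transporter of lysosomes and mitochondria, whose start region is printed above. Slc29a3 in the control was at 159, 70.6 and 105 CPM unlesioned and 235, 249.6 and 273 CPM at 4dpl. Slc29a3 in the mutant was at 211, 80.1 and 127 CPM unlesioned and 259.7, 179 and 264 CPM at 4dpl, where the unlesioned replicate 1 lay above the lowest 4dpl library. Slc29a3 differed by 0.96 (SE 0.249, adjusted p = 0.0107) on average, by 1.18 (SE 0.354, adjusted p = 0.0494) in the control and by 0.75 (SE 0.351, adjusted p = 0.151) in the mutant. Without unlesioned mutant replicate 1, the library with the highest summed microglial markers among the unlesioned, the averaged difference was 1.20 and that in the mutant 1.20.

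Slc28a2, a purine-preferring sodium-coupled carrier and the only member of its family above 1 RPKM (8.54 RPKM), was at 69.1, 26.7 and 22.5 CPM in the unlesioned control and at 40.01, 18.96 and 24.7 CPM in the control at 4dpl. Slc28a2 levels in the mutant were 25.8, 58.6 and 39.8 CPM unlesioned and 20.5, 58.01 and 26.7 CPM at 4dpl. The groups overlapped in both genotypes, and the averaged difference of -0.37 (SE 0.336, adjusted p = 0.379) was not called. Slc28a1, a pyrimidine carrier of kidney, liver and gut, was at 0.807, 0.658 and 0.799 CPM unlesioned and 0.0175, 0.0693 and 0.161 CPM at 4dpl in the control. Slc28a1 was at 0.865, 0.730 and 0.836 CPM unlesioned and 0.0682, 0.107 and 0.0359 CPM at 4dpl in the mutant. Slc28a1 was lower in every 4dpl library than in any unlesioned library of its genotype. Libraries that separated downward were seen for 21.3% of all genes in the control, 23.2% in the mutant and 10.6% in both. Slc28a1 had the smallest p of all members, with an averaged difference of -3.36 (SE 0.506, adjusted p = 0.0022), a fall to a few counts per library (1, 4 and 7 in the control and 3, 4 and 2 in the mutant at 4dpl). Slc28a3, which carries purines and pyrimidines, was at 1.35, 1.10 and 2.01 CPM unlesioned and 0.280, 0.277 and 0.483 CPM at 4dpl in the control. Slc28a3 was at 1.20, 3.46 and 2.55 CPM unlesioned and 0.818, 0.376 and 0.629 CPM at 4dpl in the mutant. Slc28a3 was lower in every 4dpl library than in any unlesioned library of its genotype. Slc28a3 differed by -2.04 (SE 0.355, adjusted p = 0.00298). Slc28a1 and Slc28a3 were also called in the control (-3.20 and -2.10), and in the mutant their adjusted p was 0.0522 and 0.0544. Slc29a2 (mean 0.877 RPKM) and the monoamine carrier Slc29a4 (mean 0.395 RPKM) had averaged differences of -0.11 and -0.17 and were not called.

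Of 18 genes that act on the same nucleosides, 5 rose and none fell, and 13 were not called. For this and the later lists the shares over all genes are 14.2% called higher and 18.6% called lower. Hprt, which salvages purines, differed by 0.97 (SE 0.187, adjusted p = 0.00404), the uridine and cytidine kinase gene Uck1 by 0.61 (SE 0.144, adjusted p = 0.00759), and Entpd1, which encodes the ectonucleotidase CD39, by 0.78 (SE 0.212, adjusted p = 0.0132). The other two were Adk, the adenosine kinase gene, and the adenosine receptor gene Adora3, and the median over the 18 was 0.231, against -0.284 over all genes.

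The 15 organic anion transporting polypeptides ranged from the highest member to some of the lowest, and 1 rose, 6 fell and 8 were not called. Among all genes 14.2% were called higher and 18.6% lower, and falls of low members are partly fixed by the filter on low counts. Slco2b1 (chromosome 7 from 99657804 to 99711340, minus strand), a carrier of sulfated steroids, was at 204, 90.7 and 199.6 CPM unlesioned and 306, 472 and 529.9 CPM at 4dpl in the control. Slco2b1 in the mutant was at 396, 119.8 and 229 CPM unlesioned and 499.6, 296 and 449 CPM at 4dpl. The control groups did not overlap, while in the mutant unlesioned replicate 1 lay above the lowest 4dpl library. Slco2b1 differed by 1.07 (SE 0.298, adjusted p = 0.0144) on average, and in each genotype alone it missed the threshold, with 1.40 (SE 0.424, adjusted p = 0.0503) in the control and 0.74 (SE 0.419, adjusted p = 0.218) in the mutant. Without unlesioned mutant replicate 1 the averaged difference was 1.35. Exons of Slco2b1 share 7.9% of their length with a predicted gene on the opposite strand, and whether the counting used strand is not stated.

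The other Slco members above 1 RPKM, Slco3a1, Slco4a1 and Slco4c1, were not called. Slco3a1, known to carry prostaglandins and thyroxine, was at 156, 114 and 100.2 CPM unlesioned and 95.3, 94.1 and 94.3 CPM at 4dpl in the control. Slco3a1 was at 172, 74.01 and 106 CPM unlesioned and 118, 148 and 375 CPM at 4dpl in the mutant. Slco3a1 differed by 0.24 (SE 0.279, adjusted p = 0.497) on average, and 4dpl mutant replicate 3, with 20848 counts, stood far above the other libraries. Slco4a1, a thyroid hormone carrier, had a mean of 8.94 RPKM and differed by 0.022 (SE 0.272, adjusted p = 0.952). Slco4c1, known from the kidney, had a mean of 6.44 RPKM and a difference of -0.43 (SE 0.426, adjusted p = 0.423), and in the mutant replicate 2 was the highest of its group both unlesioned (73.4 CPM) and at 4dpl (72.8 CPM).

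Slco1a4, Slco1c1 and Slco2a1, carriers known from brain vessels, were low and none of them passed the test. Slco1a4, an endothelial carrier of anionic drugs and steroid conjugates, was at 1.07, 5.30 and 7.14 CPM unlesioned and 0.769, 2.88 and 1.36 CPM at 4dpl in the control. Slco1a4 in the mutant was at 2.52, 4.59 and 10.1 CPM unlesioned and 1.57, 3.43 and 2.93 CPM at 4dpl. The groups overlapped in both genotypes, and the averaged difference of -1.28 (SE 0.474, adjusted p = 0.0442) missed the p threshold of 0.01, while with DESeq2 it was -1.39 and called. Slco1c1, the thyroxine carrier of the barrier, differed by -1.004 (SE 0.419, adjusted p = 0.0671), and Slco2a1, the prostaglandin transporter, by -0.89 (SE 0.308, adjusted p = 0.0342). Endothelial markers (10 genes) summed to between 48.08 and 58.22 CPM in the unlesioned control and 36.05 and 62.57 CPM at 4dpl, and to between 38.58 and 64.08 CPM and between 39.15 and 45.96 CPM in the mutant, with 1 of the 10, Emcn, called lower. Their part in these values was not tested.

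Of the 9 low members of the family, with means of at most 0.15 RPKM, 6 fell, and Slco1a1, Slco1a5 and Slco2a1 were not called. Slco6d1, of a subfamily known from testis, was at 0.300, 0.637 and 0.838 CPM unlesioned and 0.0175, 0.0693 and 0.0921 CPM at 4dpl in the control. Slco6d1 was at 0.718, 0.917 and 1.81 CPM unlesioned and 0.182, 0.0805 and 0.0539 CPM at 4dpl in the mutant. Slco6d1 was lower in every 4dpl library than in any unlesioned library of its genotype. Slco6d1 differed by -3.36 (SE 0.532, adjusted p = 0.00257). Slco6c1 was at 0.188, 0.573 and 0.760 CPM unlesioned and 0, 0.0173 and 0.0691 CPM at 4dpl in the control. Slco6c1 was at 0.202, 0.768 and 1.27 CPM unlesioned and 0.136, 0.268 and 0.0180 CPM at 4dpl in the mutant. Slco6c1 libraries were separated in the control and overlapped in the mutant. Slco6c1 differed by -3.28 (SE 0.768, adjusted p = 0.00743). Slco6b1 was at 0.338, 0.212 and 0.429 CPM unlesioned and 0.0350, 0.0867 and 0.138 CPM at 4dpl in the control. Slco6b1 was at 0.147, 0.337 and 0.294 CPM unlesioned and 0.0682, 0.0537 and 0.0180 CPM at 4dpl in the mutant. Slco6b1 was lower in every 4dpl library than in any unlesioned library of its genotype. Slco6b1 differed by -2.18 (SE 0.600, adjusted p = 0.0138). Slco1a5 was at 0.131, 0.488 and 0.702 CPM unlesioned and 0.122, 0.156 and 0.253 CPM at 4dpl in the control. Slco1a5 was at 0.994, 0.917 and 1.51 CPM unlesioned and 0.614, 0.376 and 0.126 CPM at 4dpl in the mutant. Slco1a5 libraries were separated in the mutant and overlapped in the control. Its difference of -1.47 (SE 0.495, adjusted p = 0.0306) was not called. Slco1a6 was at 0.263, 0.297 and 0.565 CPM unlesioned and 0.245, 0.0173 and 0.184 CPM at 4dpl in the control. Slco1a6 was at 0.460, 0.899 and 1.42 CPM unlesioned and 0.227, 0.134 and 0.198 CPM at 4dpl in the mutant. Slco1a6 was lower in every 4dpl library than in any unlesioned library of its genotype. Slco1a6 differed by -1.81 (SE 0.545, adjusted p = 0.0196), and it was not called without replicate 3 of either unlesioned group or without 4dpl mutant replicate 2, the difference staying between -2.09 and -1.52. The Slco1a genes are near copies of each other in 1 cluster on chromosome 6, so the counting could split reads between them. The liver carrier Slco1b2 (-2.41) and Slco5a1 (-1.49) were called lower as well, the first in 3 and the second in 8 of the 12 fits without 1 library.

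Of 11 prostaglandin genes, 3 rose and none fell. They were Ptges3 (0.70 (SE 0.142, adjusted p = 0.00471)), Hpgd (1.01 (SE 0.253, adjusted p = 0.00955)), the prostaglandin-degrading dehydrogenase gene, and Ptgs1 (0.77 (SE 0.202, adjusted p = 0.0113)), the gene of cyclooxygenase 1. None of 7 tested thyroid hormone genes was called by edgeR, and 1 of them, Hr, was under an unadjusted p of 0.05. Hr differed by 0.57 (SE 0.253, adjusted p = 0.0805), Klf9 by -0.53 (SE 0.302, adjusted p = 0.168) and the deiodinase gene Dio2 by -0.46 (SE 0.277, adjusted p = 0.187).

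Of the 3 vitamin carriers of the Slc19a family, Slc19a1 rose and the thiamine carriers Slc19a2 and Slc19a3 were not called. Slc19a1 (chromosome 10 from 77032241 to 77061002, plus strand), the reduced folate carrier, was at 13.04, 7.34 and 11.2 CPM unlesioned and 19.2, 20.04 and 19.4 CPM at 4dpl in the control. Slc19a1 was at 10.9, 7.08 and 10.7 CPM unlesioned and 16.7, 14.6 and 18.4 CPM at 4dpl in the mutant. In both genotypes the 3 lesioned libraries were all above the 3 unlesioned ones. Slc19a1 differed by 0.84 (SE 0.181, adjusted p = 0.00557) on average, by 0.89 (SE 0.257, adjusted p = 0.0453) in the control and by 0.79 (SE 0.257, adjusted p = 0.0733) in the mutant. Slc19a2 differed by 0.50 (SE 0.257, adjusted p = 0.128). Slc19a2 means (± SD, n = 3 each) were 7.20 ± 2.99 CPM unlesioned and 8.77 ± 0.890 CPM at 4dpl in control mice. Those of mutants were 6.81 ± 3.16 and 11.2 ± 0.943 CPM. Slc19a3 was low (0.105 RPKM) and differed by -0.72 (SE 0.676, adjusted p = 0.397). Of 13 genes of folate and thiamine metabolism 6 rose and none fell, with a median of 0.646. The folate receptor gene Folr2, which marks a class of tissue macrophages, differed by 2.51 (SE 0.389, adjusted p = 0.00233), Ggh, whose product trims folate polyglutamates, by 0.98 (SE 0.164, adjusted p = 0.0028), and Fpgs, whose product adds them, by 0.76 (SE 0.184, adjusted p = 0.00814).

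In the peptide carrier family the lysosomal members were well expressed and did not pass the test, and the gut-type members fell from low levels. Slc15a4, which exports histidine and peptides from endolysosomes of immune cells, was at 83.02, 56.3 and 77.7 CPM unlesioned and 63.02, 86.1 and 61.3 CPM at 4dpl in the control. Slc15a4 was at 95.4, 38.5 and 65.5 CPM unlesioned and 92.1, 87.6 and 117 CPM at 4dpl in the mutant. Slc15a4 differed by 0.26 (SE 0.211, adjusted p = 0.317) on average. Slc15a3, its close relative, was at 72.7, 48.97 and 47.7 CPM unlesioned and 72.6, 77.1 and 68.2 CPM at 4dpl in the control. Slc15a3 was at 33.6, 30.6 and 29.9 CPM unlesioned and 56.4, 48.7 and 32.2 CPM at 4dpl in the mutant. The averaged difference of 0.45 (SE 0.168, adjusted p = 0.0448) missed the p threshold, and it was called without unlesioned control replicate 1 (0.59) or without 4dpl mutant replicate 3. Exons of Slc15a3 share 28.1% of their length with Tmem132a on the opposite strand, so part of this count may belong to that gene. Slc15a2, the peptide carrier of choroid plexus and astrocytes, had a mean of 1.001 RPKM and differed by 0.14 (SE 0.374, adjusted p = 0.769).

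Slc15a1, the intestinal peptide carrier, was at 0.526, 0.764 and 1.31 CPM unlesioned and 0.0524, 0.173 and 0.391 CPM at 4dpl in the control. Slc15a1 was at 1.12, 1.35 and 0.995 CPM unlesioned and 0.409, 0.0805 and 0.0539 CPM at 4dpl in the mutant. Slc15a1 was lower in every 4dpl library than in any unlesioned library of its genotype. Slc15a1 differed by -2.38 (SE 0.559, adjusted p = 0.00754). Slc15a5 was at 0.206, 0.467 and 0.741 CPM unlesioned and 0.0175, 0.104 and 0.115 CPM at 4dpl in the control. Slc15a5 was at 0.221, 0.374 and 0.520 CPM unlesioned and 0.0227, 0.0537 and 0 CPM at 4dpl in the mutant. Slc15a5 was lower in every 4dpl library than in any unlesioned library of its genotype. Slc15a5 differed by -3.21 (SE 0.703, adjusted p = 0.00582). All 3 lesioned mutant libraries together held 3 counts of Slc15a5 against 55 in the unlesioned ones, a ratio of 16.5 after scaling to library size with a 95% counting interval of 5.36 to 82.5, which covers counting error only. Of 12 genes for peptidases and for the sensing of bacterial peptides, 7 rose and 1 fell. The aminopeptidase gene Anpep differed by 2.26 (SE 0.367, adjusted p = 0.00266), and the dipeptidase genes Cndp2 and Pepd by 1.28 (SE 0.208, adjusted p = 0.00267) and 1.05 (SE 0.213, adjusted p = 0.0047). The 1 that fell was Cndp1, the carnosinase gene (-1.81 (SE 0.399, adjusted p = 0.00605)), which is outside the rule for named genes and was picked for its direction.

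The 25 described Slc22a members held 1 that rose, 11 that fell and 13 that were not called. Over all genes 14.2% were called higher and 18.6% lower. Apart from Slc22a8, those that fell were low members, for which a fall is partly fixed by the filter on low counts. Slc22a5 (chromosome 11 from 53864542 to 53891660, minus strand), the carnitine carrier of the plasma membrane, was at 18.1, 10.3 and 11.8 CPM unlesioned and 29.4, 22.1 and 20.3 CPM at 4dpl in the control. Slc22a5 was at 20.6, 10.1 and 13.9 CPM unlesioned and 20.3, 23.99 and 34.8 CPM at 4dpl in the mutant. The control groups did not overlap, and in the mutant unlesioned replicate 1 was level with the lowest 4dpl library. Slc22a5 differed by 0.83 (SE 0.220, adjusted p = 0.0119) on average, and in each genotype alone it missed the threshold, with 0.83 (SE 0.311, adjusted p = 0.0856) in the control and 0.82 (SE 0.311, adjusted p = 0.0963) in the mutant. Of its neighbours in the same cluster on chromosome 11, Slc22a4, an ergothioneine carrier, differed by -0.16 (SE 0.314, adjusted p = 0.7) and Slc22a21 by 0.35 (SE 0.209, adjusted p = 0.182), and reads may be split among these 3 near copies. Of 10 genes for carnitine use and entry of fatty acids into mitochondria, 7 rose and none fell, with a median of 0.732. The 3 with the smallest p were Acadm (0.74 (SE 0.129, adjusted p = 0.00306)) and Acadvl (0.73 (SE 0.158, adjusted p = 0.00557)), of fatty acid oxidation, and the carnitine acetyltransferase gene Crat (0.84 (SE 0.179, adjusted p = 0.00543)).

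The most abundant member of the family, Slc22a17, was not called. Slc22a17 was at 120.3, 130.3 and 122 CPM unlesioned and 117, 134 and 126 CPM at 4dpl in the control, where the 6 libraries lay close together, and at 171, 66.6 and 139 CPM unlesioned and 158, 143 and 331 CPM at 4dpl in the mutant. Slc22a17 differed by 0.38 (SE 0.247, adjusted p = 0.22) on average, and without 4dpl mutant replicate 3 the difference was 0.16. Slc22a23, a carrier with no assigned substrate, was at 25.6, 14.5 and 13.6 CPM unlesioned and 15.8, 16.5 and 20.99 CPM at 4dpl in the control. Slc22a23 was at 33.1, 22.3 and 18.3 CPM unlesioned and 29.4, 25.97 and 92.4 CPM at 4dpl in the mutant. Unlesioned and 4dpl libraries overlapped in both genotypes, and the averaged difference was 0.50 (SE 0.301, adjusted p = 0.19), or 0.10 without that library. Slc22a15, a carrier of zwitterions, had a mean of 2.47 RPKM and differed by -0.46 (SE 0.269, adjusted p = 0.178). Slc22a20, known from the olfactory mucosa, had a mean of 1.78 RPKM and differed by -1.10 (SE 0.397, adjusted p = 0.0404). It was not called, since its unadjusted edgeR p of 0.0151 missed the p threshold of 0.01.

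Several organic cation and anion carriers known from kidney and liver fell from low levels. Slc22a3, the extraneuronal monoamine carrier, was at 3.10, 2.19 and 1.60 CPM unlesioned and 0.839, 0.381 and 0.460 CPM at 4dpl in the control. Slc22a3 was at 1.23, 1.61 and 1.42 CPM unlesioned and 0.545, 0.698 and 0.899 CPM at 4dpl in the mutant. Its libraries did not overlap in either genotype, and the averaged difference was -1.51 (SE 0.307, adjusted p = 0.00475), with -2.03 (SE 0.439, adjusted p = 0.0273) in the control. Slc22a2, the renal cation carrier, was at 0.657, 0.785 and 0.604 CPM unlesioned and 0.157, 0.173 and 0.230 CPM at 4dpl in the control. Slc22a2 was at 0.405, 0.861 and 0.655 CPM unlesioned and 0.341, 0.268 and 0.0719 CPM at 4dpl in the mutant. Slc22a2 was lower in every 4dpl library than in any unlesioned library of its genotype. Slc22a2 differed by -1.68 (SE 0.442, adjusted p = 0.0114). Slc22a6, the renal anion carrier also found in the meninges, was at 0.188, 1.04 and 1.46 CPM unlesioned and 0.105, 0.0173 and 0.253 CPM at 4dpl in the control. Slc22a6 was at 0.460, 0.805 and 0.949 CPM unlesioned and 0, 0.0805 and 0.108 CPM at 4dpl in the mutant. Slc22a6 libraries were separated in the mutant and overlapped in the control. Slc22a6 differed by -3.17 (SE 0.713, adjusted p = 0.00645). Slc22a8, an anion carrier of kidney, choroid plexus and brain endothelium, had a mean of 0.333 RPKM and was at 0.469, 2.06 and 1.64 CPM unlesioned and 0.717, 1.06 and 0.253 CPM at 4dpl in the control. Slc22a8 was at 1.20, 2.47 and 2.44 CPM unlesioned and 0.523, 0.590 and 0.467 CPM at 4dpl in the mutant, and fell by 1.49 on the log2 scale (SE 0.420, adjusted p = 0.0153), though it was not called without unlesioned control replicate 2, the difference staying between -1.70 and -1.27. Fibroblast markers of the meninges (9 genes, 8 tested) summed to between 16.87 and 39.83 CPM in the unlesioned control and between 93.24 and 199.8 CPM at 4dpl, and to between 27.88 and 73.21 CPM and between 42.93 and 64.26 CPM in the mutant. Of the 8, Col1a1, Col1a2 and Col3a1 were called higher on average, Dcn was called lower, by -0.96 (SE 0.293, adjusted p = 0.0205), and the other 4 were not called, and the part of these cells in the values of the carriers was not tested.

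Slc22a13 was at 0.469, 0.849 and 1.42 CPM unlesioned and 0.0874, 0.381 and 0.391 CPM at 4dpl in the control. Slc22a13 was at 0.497, 1.40 and 0.452 CPM unlesioned and 0.182, 0.188 and 0.0899 CPM at 4dpl in the mutant. Slc22a13 was lower in every 4dpl library than in any unlesioned library of its genotype. Slc22a13 differed by -2.02 (SE 0.509, adjusted p = 0.00971). Slc22a22 was at 0.113, 0.403 and 0.780 CPM unlesioned and 0.0175, 0.0867 and 0.138 CPM at 4dpl in the control. Slc22a22 was at 0.736, 0.449 and 1.29 CPM unlesioned and 0.136, 0.107 and 0.0180 CPM at 4dpl in the mutant. Slc22a22 libraries were separated in the mutant and overlapped in the control. Slc22a22 differed by -2.83 (SE 0.657, adjusted p = 0.00715). Slc22a27 was at 0.413, 0.637 and 0.975 CPM unlesioned and 0.122, 0.0520 and 0.115 CPM at 4dpl in the control. Slc22a27 was at 0.313, 0.880 and 0.520 CPM unlesioned and 0.318, 0.134 and 0.0539 CPM at 4dpl in the mutant. Slc22a27 libraries were separated in the control and overlapped in the mutant. Slc22a27 differed by -2.27 (SE 0.529, adjusted p = 0.0073). Slc22a30 was at 0.450, 0.573 and 0.760 CPM unlesioned and 0, 0.0867 and 0.138 CPM at 4dpl in the control. Slc22a30 was at 0.368, 0.768 and 2.01 CPM unlesioned and 0.0909, 0.188 and 0.144 CPM at 4dpl in the mutant. Slc22a30 was lower in every 4dpl library than in any unlesioned library of its genotype. Slc22a30 differed by -2.94 (SE 0.626, adjusted p = 0.00539). Both belong to a cluster of near copies on chromosome 19 (Slc22a19 and Slc22a26 to Slc22a30), of which Slc22a29 was also called lower and Slc22a19, Slc22a26 and Slc22a28 were not, and the counting could split reads between them. Slc22a12 (-2.26), the urate carrier of kidney, and Slc22a14 (-2.53) were called lower too, in 4 and 5 of the 12 fits without 1 library. Slc22a12 differed by -4.44 (SE 1.18, adjusted p = 0.0391) in the control and by -0.082 (SE 0.873, adjusted p = 0.972) in the mutant, so that its average came from the control.

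In the bile acid carrier family Slc10a3 rose and Slc10a1, Slc10a2 and Slc10a5 fell. Slc10a3 (chromosome X from 74369217 to 74373349, minus strand), a widely expressed member with no assigned substrate, was at 22.9, 12.8 and 10.2 CPM unlesioned and 32.02, 35.7 and 33.5 CPM at 4dpl in the control. Slc10a3 was at 16.9, 19.4 and 17.2 CPM unlesioned and 25.5, 27.6 and 23.7 CPM at 4dpl in the mutant. Every 4dpl library was above every unlesioned library in both genotypes. Slc10a3 differed by 0.83 (SE 0.185, adjusted p = 0.00626) on average, by 1.14 (SE 0.263, adjusted p = 0.0303) in the control and by 0.52 (SE 0.261, adjusted p = 0.173) in the mutant. Exons of Slc10a3 share 12.8% of their length with Ubl4a on the same strand, where reads cannot be assigned to 1 of the 2 genes. Slc10a1, the bile acid importer of hepatocytes, had a mean of 2.08 RPKM. Slc10a1 was at 5.97 ± 1.39 CPM unlesioned and 3.19 ± 0.550 CPM at 4dpl in control mice (± SD, n = 3 each). Corresponding mutant values were 5.32 ± 0.984 and 3.81 ± 0.110 CPM. Slc10a1 was the only member above 1 RPKM that fell, with -0.70 (SE 0.206, adjusted p = 0.0185) and no overlap in either genotype, and it was called in 5 of the 12 fits without 1 library, in which the difference stayed between -0.76 and -0.59. Slc10a2, the ileal importer, was at 0.582, 0.361 and 0.994 CPM unlesioned and 0.0874, 0.0347 and 0.184 CPM at 4dpl in the control. Slc10a2 was at 0.957, 0.637 and 1.29 CPM unlesioned and 0.159, 0.215 and 0.162 CPM at 4dpl in the mutant. Slc10a2 was lower in every 4dpl library than in any unlesioned library of its genotype. Slc10a2 differed by -2.54 (SE 0.473, adjusted p = 0.00371). Slc10a7, known from bone growth, had a mean of 2.05 RPKM and differed by 0.38 (SE 0.171, adjusted p = 0.0866), and Slc10a5, among the low members, was called lower in 3 of the 12 fits without 1 library.

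Both multidrug and toxin extrusion carriers, Slc47a1 and Slc47a2, fell from low levels. Slc47a1 was at 0.863, 0.764 and 0.585 CPM unlesioned and 0.0699, 0.173 and 0.0230 CPM at 4dpl in the control. Slc47a1 was at 0.791, 0.505 and 0.791 CPM unlesioned and 0.591, 0.107 and 0.701 CPM at 4dpl in the mutant. The control groups were far apart and those of the mutant overlapped, and the averaged difference was -1.77 (SE 0.512, adjusted p = 0.0166), with -2.98 (SE 0.767, adjusted p = 0.037) in the control and -0.56 (SE 0.687, adjusted p = 0.569) in the mutant. The averaged call was lost without 4dpl control replicate 1, with a difference of -1.67. The 3 lesioned mutant libraries held 3 counts of Slc47a2 against 36 in the unlesioned ones, a ratio of 10.8 after the same scaling with a 95% counting interval of 3.42 to 54.9, and its averaged call was lost without unlesioned control replicate 3, the fitted difference staying between -5.13 and -2.71. Among 8 ATP-driven exporters of organic ions 3 rose and 1 fell. Abcc3 differed by 2.11 (SE 0.269, adjusted p = 0.0019), Abcb1b by 1.17 (SE 0.241, adjusted p = 0.00488), and Abcc2, which is known from the bile canaliculus, by -1.71 (SE 0.485, adjusted p = 0.0157).

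**Figure D3:**
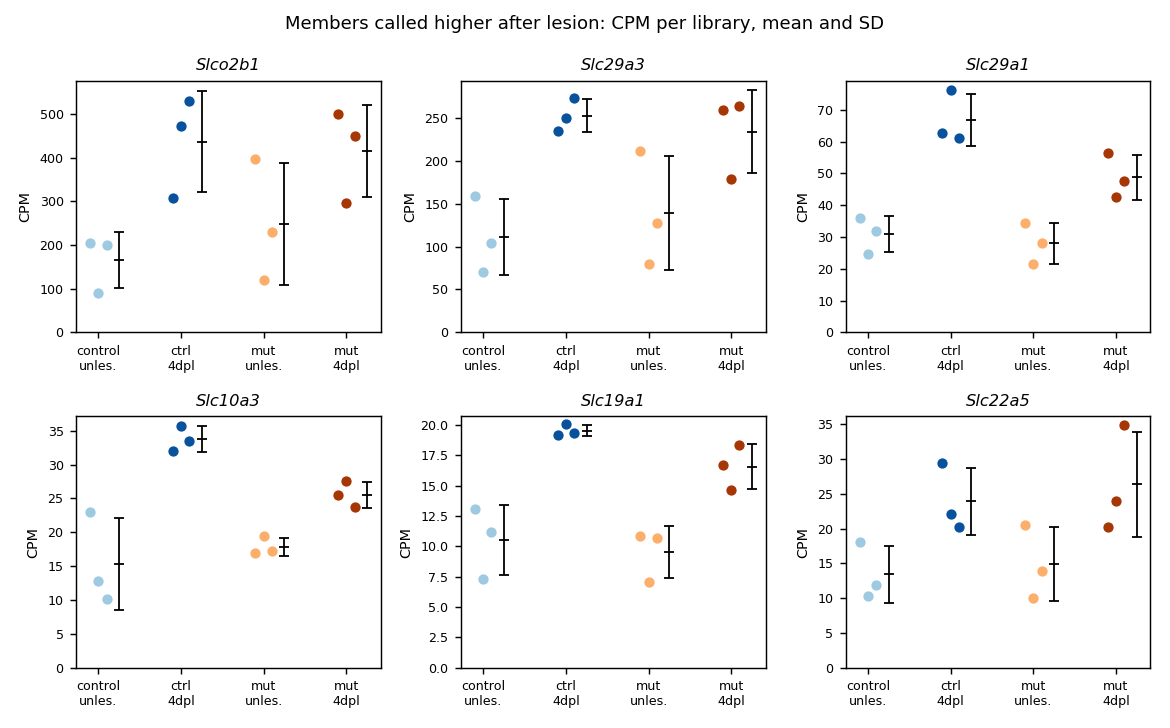
CPM of the 6 members called higher after lesion, in each library (points), with the group mean and SD (bars, n = 3), on linear axes that start at 0. For Slc29a1, Slc10a3 and Slc19a1 all 4dpl points lie above all unlesioned points of the same genotype, and for Slco2b1, Slc29a3 and Slc22a5 replicate 1 of the unlesioned mutant reaches the range of the 4dpl mutant.

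Marker sums of several cell types were higher at 4dpl as well. Of 8 microglial markers 6 rose in the averaged comparison, with sums of 2353 to 4852 CPM unlesioned and 8012 to 13680 CPM at 4dpl in the control, and of 2813 to 9142 CPM and 8237 to 12560 CPM in the mutant. Of 8 phagocyte markers, such as Gpnmb and Spp1, 7 rose, with sums of 3906 to 11340 CPM and 40560 to 42910 CPM in the control and of 2287 to 6073 CPM and 19430 to 29330 CPM in the mutant. Microglial sums overlapped between unlesioned and 4dpl libraries in the mutant, and phagocyte sums overlapped in neither genotype. Of 9 oligodendrocyte markers 2 rose, with sums of 9639 to 10560 CPM and 13310 to 23290 CPM in the control and of 9920 to 12480 CPM and 13290 to 36610 CPM in the mutant. Of 7 astrocyte markers 2 rose, with sums of 167 to 197.7 CPM and 310.1 to 578.9 CPM in the control and of 213.7 to 275.3 CPM and 313.1 to 595.5 CPM in the mutant, and of 6 markers of oligodendrocyte progenitors 3 rose. Sums of oligodendrocyte and astrocyte markers did not overlap between unlesioned and 4dpl libraries in either genotype. The part of these cells in the rises of the 6 carriers was not tested.

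To describe the level at which most of the falling carriers lay, a set of genes with little known use in spinal cord, the 1731 odorant and pheromone receptor genes (Olfr, Vmn1r and Vmn2r, a set chosen after the counts were seen), was counted beside them. Of these, 1052 were tested and 615 of them (58.5%) were called lower after lesion. Their 95th percentile was 0.28 RPKM, and 36 of the 64 carriers lay below it. Of these 36 carriers 24 were called lower, with averaged differences of the 36 between -3.49 and -0.719. Both counts are partly fixed by the filter on low counts, which 29 of the 36 carriers and 843 of the 1052 receptors passed through unlesioned libraries alone, and no support is drawn from them. Of the 28 carriers above that level 6 were called higher, 2 (Slc10a1 and Slc22a8) lower and 20 were not called, and all 28 passed the filter through the libraries of either state. The 26 carriers that fell had a median level of 0.132 RPKM, and the 36 low carriers had a median count of 29 per library unlesioned and 5 at 4dpl.

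Summed over the 36 low carriers, the level in the control was 16.18, 23.68 and 29.54 CPM unlesioned and 4.457, 4.94 and 8.31 CPM at 4dpl, and in the mutant 18.28, 30.03 and 35.28 CPM unlesioned and 9.226, 7.432 and 7.513 CPM at 4dpl. The summed receptors, all 1731 whether or not they passed the filter, were at 343.5 to 973.2 CPM in the unlesioned and 121.5 to 206.1 CPM in the 4dpl control, and at 592.5 to 1220 CPM and 95.71 to 255.1 CPM in the mutant. In both sets every unlesioned library was above every 4dpl library of its genotype, and within each unlesioned group the libraries stood in the same order in both sets, while at 4dpl the orders differed in both genotypes. The part of what moved the receptor counts in the falls of the low carriers was not tested, and the fall of a single low carrier is given here as a count, not as a change in a cell type.

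**Figure D4:**
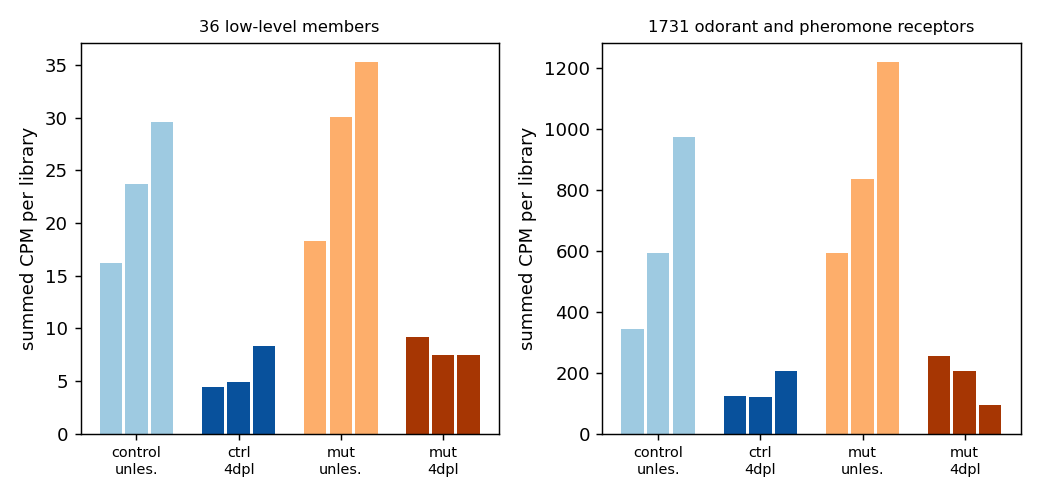
Summed CPM in each of the 12 libraries, 1 bar per library grouped by genotype and lesion, for the 36 members below 0.28 RPKM (left) and the 1731 odorant and pheromone receptor genes (right), on linear axes from 0. In both panels all unlesioned bars are higher than the 4dpl bars of the same genotype.

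To ask whether loss of Tet1 in the oligodendrocyte lineage changed the carriers, the genotypes were compared without and with lesion, and their changes after lesion were compared as an interaction. No member was called in any of these comparisons by edgeR, which called 0% of the 31109 genes tested, and no member was called by DESeq2 or by limma with voom. At an unadjusted p of 0.05 there were 1 member unlesioned, 6 at 4dpl (5 higher and 1 lower in the mutant) and 3 in the interaction, and the smallest adjusted p was 0.696, 0.274 and 1. The median log2 difference of the members, mutant minus control, was 0.0853 unlesioned (0.0208 over all genes) and 0.333 at 4dpl (0.0486), and that of the interaction was 0.135 (0.0739). The members that follow were taken for their small p and are described, with no call.

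Slc15a3 had the smallest p unlesioned, with 56.5 ± 14.1 CPM in control and 31.4 ± 1.94 CPM in mutant mice (± SD, n = 3 each). Its difference was -0.85 (SE 0.239, unadjusted p = 0.00321, adjusted p = 0.696), and all 3 mutant libraries were below all 3 controls, as for 6.27% of all genes. At 4dpl the difference was -0.67 (SE 0.239, adjusted p = 0.492), again without overlap, as for 5.44% of all genes. Slco1a5 (difference 1.37 (SE 0.678, adjusted p = 0.981)) and Slco1a6 (difference 1.30 (SE 0.735, adjusted p = 1)) were next, both at low counts. Libraries of Slco1a5 did not overlap, as for 4.08% of all genes in that direction.

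Slc22a23, which the study names, differed at 4dpl by 1.47 (SE 0.433, adjusted p = 0.368), with all 3 mutant libraries above all 3 controls, as for 7.34% of all genes. The counts were 906, 952 and 912 in the control and 1293, 968 and 5139 in the mutant at 4dpl. Without 4dpl mutant replicate 3 the difference was 0.64, and the interaction went from 1.01 (SE 0.602, adjusted p = 1) to 0.18. Slco3a1 (1.18 (SE 0.400, adjusted p = 0.447)) and Slc22a17 (0.74 (SE 0.351, adjusted p = 0.73)) were also highest in that library, and without it they differed by 0.49 and 0.26. The interaction of Slco3a1 was 1.25 (SE 0.560, adjusted p = 1), and 0.57 without the same library. Oligodendrocyte markers summed to 36610 CPM in 4dpl mutant replicate 3 and to 13290 and 15380 CPM in the other two of its group, and their part in these values was not tested.

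Slc22a12 had the smallest p at 4dpl, with counts of 0, 0 and 1 in the control and 7, 9 and 16 in the mutant. The summed counts of 1 and 32 gave a ratio of 37 after scaling to library size with a 95% counting interval of 6.18 to 1510, and the fitted adjusted p was 0.274. Exons of Slc22a12 share 30.1% of their length with Nrxn2, a gene on the opposite strand, so these few counts may come from either gene. Slc47a1 differed at 4dpl by 2.34 (SE 0.761, adjusted p = 0.42), at counts of 4, 10 and 1 in the control and 26, 4 and 39 in the mutant, which overlapped. Its interaction was 2.42 (SE 1.01, adjusted p = 1), and that of Slc22a12 was 4.36 (SE 1.46, adjusted p = 1).

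For the 6 carriers that rose, the interaction was below 0 in the fit to all libraries, none was called, and for 3 of them the sign turned without 1 library. It was -0.66 (SE 0.590, adjusted p = 1) for Slco2b1, -0.62 (SE 0.368, adjusted p = 1) for Slc10a3, -0.44 (SE 0.494, adjusted p = 1) for Slc29a3 and -0.32 (SE 0.323, adjusted p = 1) for Slc29a1. For Slc19a1 and Slc22a5 it was -0.099 and -0.0078. Without unlesioned mutant replicate 1 the interaction was -0.14 for Slco2b1, 0.0029 for Slc29a3 and 0.31 for Slc22a5, and without unlesioned control replicate 2 it was 0.11 for Slc19a1. For Slc10a3 and Slc29a1 it stayed below 0 without any 1 library, between -1.04 and -0.40 and between -0.51 and -0.13. Phagocyte markers at 4dpl summed to 40560 to 42910 CPM in the control and to 19430 to 29330 CPM in the mutant, and their part in these differences was not tested. None of the genes on the partner lists was called between genotypes or in the interaction by edgeR.

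**Figure D5:**
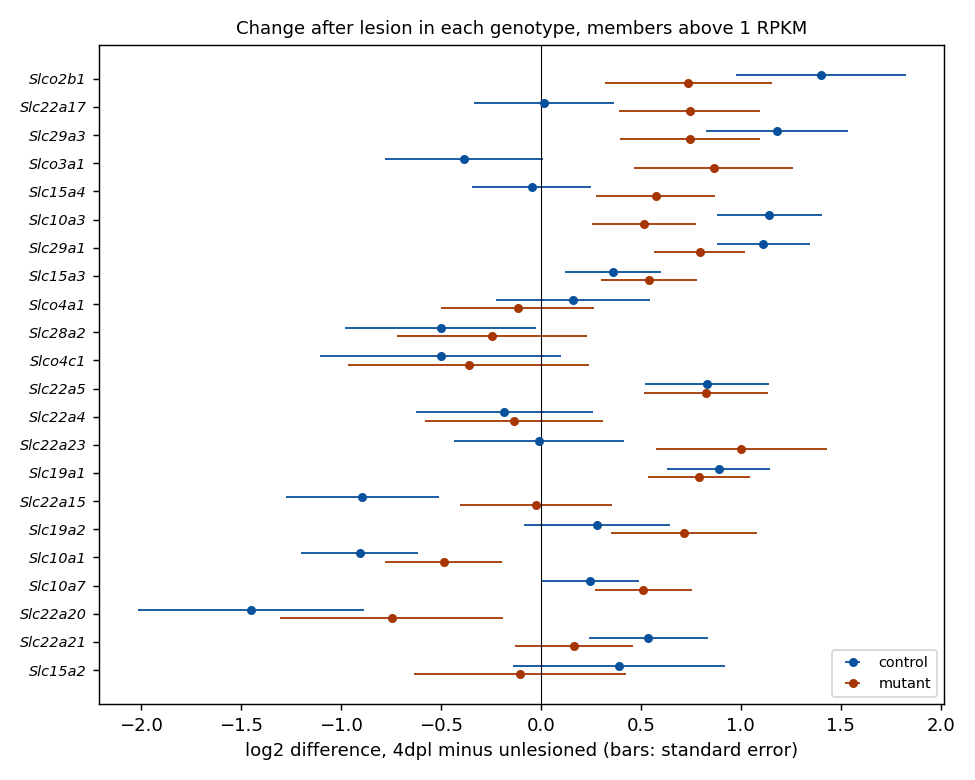
Log2 difference between 4dpl and unlesioned in the control and in the mutant for the 22 members above 1 RPKM, with the standard error as bars (3 libraries in each group). Bars of the 2 genotypes overlap or nearly meet for the 6 members that rose, and Slco3a1, Slc22a17 and Slc22a23 lie further right in the mutant, where replicate 3 at 4dpl is high.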

How the data were processed

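RNA-seq of Percoll-enriched spinal cord gave 12 libraries in 4 groups, assigned by the labels. The authors deposited raw counts per gene, which are not normalized. Per the study's methods reads were aligned with BWA and uniquely aligned reads on exons were counted with featureCounts on Ensembl genes of GRCm38, while the submitters' processing notes name STAR and mm10. The strand setting is not given in the sources used here. All 37 mitochondrial genes were at 0. Libraries held 34805086 to 67251544 counts, and each group has 3 libraries. Per the study's text unlesioned tissue was the opposite side of injected cords, and the labels do not say which libraries share a mouse.

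Tests used edgeR 4.0.16 in R 4.3.3 (filterByExpr, TMM, glmQLFit and glmQLFTest). A model with 1 mean per group was fitted to all 12 libraries and 31109 genes, and genes were called at a p of 0.01 and a Benjamini-Hochberg adjusted p of 0.05 over all genes tested. Differences are log2 and two-sided. Standard errors were derived from the F statistic. Ratios of 3 or fewer summed counts have exact 95% intervals. Part of this procedure was tried on simulated data, and no result of that trial is given here. Promoter windows came from RefSeq (GRCm38.p6).

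The members and lists were chosen with earlier results of these data known. Values in every library are given for the 20 called members with the smallest p for the averaged lesion, for Slc22a23, Slc19a1 and Slco1a4, for the highest member of each family and for the 3 smallest p-values in each comparison without calls, and Slc22a8 was added for its level. Partner lists name up to 3 genes by p. A few genes of the lists and families are not reported here. The receptor set and the CpG counts were chosen after the data were seen. Alternatives were DESeq2 1.42.0, limma 3.58.1 with voom, RLE size factors, other filters and thresholds, fits to the groups compared only, replicate blocks and leaving out each library.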

Additional observations from a re-analysis of the deposited data

How the results depend on the processing

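The number of members called for the lesion depended on the tool. In the control it was 14 as reported, 26 with DESeq2, 28 with voom and sample weights, 24 with the newer quasi-likelihood option of edgeR (legacy set to FALSE), 25 at an adjusted p of 0.10 alone and 3 when only the groups compared were fitted. In the mutant it was 0 as reported and 18, 17, 17, 18 and 4 under the same settings, and 2 with no filter on low counts. Without 1 library at a time the count ranged from 0 to 22 in the control, from 0 to 13 in the mutant (13 without unlesioned control replicate 1, 9 without unlesioned mutant replicate 1) and from 25 to 35 averaged over genotypes. The averaged count was otherwise between 27 and 46, and its 6 rises were called under every alternative. The 3 comparisons that involve genotype called no member under any alternative. The cause of these differences was not tested. Of the 26 members called lower on average, 15 were called without any 1 library and 11 lost the call in at least 1 such fit. A further tally covers 39 values of members named by the rule and leaves out the averaged calls of most of those 11. In it 757 recomputed values kept their direction and side of the threshold, and 28 gained a call. In the same tally 2 lost a call (Slco6b1 and Slc47a1, averaged) and none turned, so it mostly describes the more stable calls. With replicate number as a block, the counts were 15, 0 and 29 by the labels' number and 13, 0 and 27 by the study's number (control, mutant, averaged). Of the 26 members called lower on average, 21 and 18 were also called lower in these fits. Same-numbered libraries deviated together with correlations of 0.189, 0.0517 and 0.189 in the control and -0.0301, 0.0728 and -0.0703 in the mutant, so the numbers were not taken to pair the samples. Depth limits the 36 low carriers, whose median count at 4dpl was 5.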
